A study of Mus musculus with 6 samples.

Results

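The expression of 8 genes that encode enzymes making reactive oxygen or nitric oxide, or their partner proteins, was examined in mouse colorectal tumors. They were chosen by name, with earlier results of these data known. The members were Duox2, Duoxa2, Nox1, Noxo1, Noxa1, Nos2, Cybb and Cyba, 8 of the 54167 genes in the deposited table. Tumors were induced with azoxymethane (AOM), a colon carcinogen given at 10 mg per kg, and cycles of dextran sulfate sodium (DSS). DSS, which injures the colon epithelium, was given at 2.5% for 7 days per cycle. The mice were C57BL/6J, male by the study's methods, and 8 weeks old at the start. Tumors were collected on day 98. The control group, Trp53fl/fl (n = 3 tumors), carried loxP-flanked Trp53 alleles without Cre, and the VP group (n = 3 tumors) carried the same alleles with Pvillin-Cre. The villin promoter drives Cre in intestinal epithelial cells, so stromal and immune cells of VP tumors keep Trp53. Both groups received AOM and DSS, and no untreated colon was analysed here. The labels name each tumor as a separate sample and do not say whether any came from the same animal. The p-values therefore set the genotype difference against variation between these tumors, which may not be variation between animals.

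NADPH oxidases move electrons from NADPH across a membrane to oxygen. NOX1, the main NADPH oxidase of colon epithelium, makes superoxide together with the membrane partner CYBA (p22phox), the organizer NOXO1 and the activator NOXA1, and DUOX2 makes hydrogen peroxide at the apical surface once the maturation factor DUOXA2 has carried it there. NOS2, the inducible nitric oxide synthase, makes nitric oxide from arginine when bacterial products or cytokines switch its gene on, and CYBB (gp91phox) is the catalytic chain of the phagocyte oxidase, which shares CYBA with NOX1. In the gut these enzymes are known for their part in defence against microbes and in inflammation.

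Gene positions are those of GENCODE M21 on GRCm38; the deposited table gives gene identifiers and no coordinates. Duox2 (chr2:122279247-122298449, minus strand) and Duoxa2 (chr2:122298900-122302885, plus strand) lie head to head with 450 bases between them. Nox1 (chrX:134086421-134221956) and Cybb (chrX:9435252-9487771) are both on the minus strand of the X chromosome. Noxo1 is at chr17:24696234-24700529 on the plus strand, Noxa1 at chr2:25085667-25095149 on the minus strand, Nos2 at chr11:78920787-78960254 on the plus strand and Cyba at chr8:122424776-122432930 on the minus strand. Trp53 itself is on the same chromosome as Nos2, 9.33 Mb away.

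The 150 bases before the transcription start are printed below for 4 members, 5′ to 3′ on the gene's strand, from the RefSeq promoter table of GRCm38.p6. Duoxa2, Nox1 and Noxa1 are shown because their tumors did not overlap between the genotypes, and Cybb because its level differed least. Noxo1 did not overlap either, but its stretch holds an exon of the neighbouring gene Gfer and is not printed. The Noxo1 window had no motif match. Nos2 also did not overlap, but it had no entry in that promoter table. None of the 4 stretches holds an exon of GENCODE M21. Those of Duoxa2 (chr2:122298750-122298899, plus strand) and Noxa1 (chr2:25095206-25095355, minus strand) lie between genes, and those of Nox1 (chrX:134111855-134112004, minus strand) and Cybb (chrX:9469325-9469474, minus strand) lie in introns of longer transcripts of the same gene. Capitals mark a match to a motif searched: a TATA box in Duoxa2, an NF-kB motif and then a p53 half-site in Nox1, and a CCAAT box in Noxa1 (on the opposite strand) and Cybb.
Duoxa2: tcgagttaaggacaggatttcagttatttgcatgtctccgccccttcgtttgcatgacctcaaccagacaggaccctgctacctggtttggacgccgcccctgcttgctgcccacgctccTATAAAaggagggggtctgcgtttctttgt
Nox1: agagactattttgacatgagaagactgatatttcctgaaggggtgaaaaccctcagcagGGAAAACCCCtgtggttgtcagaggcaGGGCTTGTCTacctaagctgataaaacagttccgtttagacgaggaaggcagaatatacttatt
Noxa1: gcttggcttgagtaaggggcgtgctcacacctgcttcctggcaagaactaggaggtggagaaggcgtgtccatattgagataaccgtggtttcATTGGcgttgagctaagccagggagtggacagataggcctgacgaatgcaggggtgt
Cybb: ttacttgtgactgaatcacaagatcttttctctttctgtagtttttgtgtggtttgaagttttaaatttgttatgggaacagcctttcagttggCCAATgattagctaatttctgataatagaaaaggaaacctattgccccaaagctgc

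The motifs were searched on both strands of the 250 bases before the start, for the 7 members with an entry in the table and for all 32851 windows in it. Nos2 had no entry, so no motif was searched for it. No 2 of the marked matches overlap. The letters TATAAA were found in Duoxa2, from base -30 to base -25, and in 12.4% of all windows. The letters CCAAT were found in Duox2, Noxa1 and Cybb and in 33.8% of all windows. The 150 bases before the Duox2 start of the promoter table hold an exon of Duox2 itself in GENCODE M21. The NF-kB motif matched in Nox1, from -91 to -82 on the opposite strand, in Noxa1, from -249 to -240 and so outside the stretch printed, and in 7.25% of all windows. The p53 half-site motif matched in Nox1, from -64 to -55, and in 7.13% of all windows. TTCNNNGAA, the motif of STAT factors, was in none of the 7 members' windows and in 7.02% of all windows. These matches describe the letters of the windows and do not show binding, and none was searched for outside them.

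Expression was measured by RNA-seq and deposited as TPM, a transcript level that is divided by length and then scaled so that every tumor has an equal sum. TPM holds no read counts, so the depth behind each value is unknown and no counting error can be given. Trp53, the targeted gene, was 124.9, 99.3 and 147.5 TPM in Trp53fl/fl replicates 1 to 3 and 38.5, 32.8 and 27.8 TPM in VP replicates 1 to 3. All 3 VP tumors were below all 3 Trp53fl/fl tumors (log2 fold change -1.87, adjusted p = 0.0207, limma). The adjusted p was above 0.05 in 6 of 15 processing alternatives. Epithelial markers summed to 10821 to 11408 TPM in Trp53fl/fl and 12281 to 13422 TPM in VP tumors, and the 2 groups did not overlap. Every one of the 12 epithelial markers was above 10 TPM in all 6 tumors.

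All 8 members were expressed, and their levels ran in a similar order in both genotypes. In Trp53fl/fl tumors, the mean level went from 549.8 ± 118 TPM (SD, n = 3) for Cyba through Duoxa2, Noxo1, Duox2, Noxa1, Nos2 and Nox1 to 9.09 ± 0.857 TPM (SD, n = 3) for Cybb. The ranges of Duoxa2 and Noxo1, of Noxo1 and Duox2, and of Nos2 and Nox1 overlapped there, although Noxo1 was above Duox2 and Nos2 above Nox1 within each of the 3 tumors. In VP tumors, Nos2 stood above Noxa1 by mean, but these ranges overlapped, as did those of Duox2 and Nos2. Cybb was the lowest member in each of the 6 tumors and Cyba the highest. Among all 15117 genes tested, Cyba was at the 98.4th percentile of mean TPM and Cybb at the 37.5th.

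**Figure D1:**
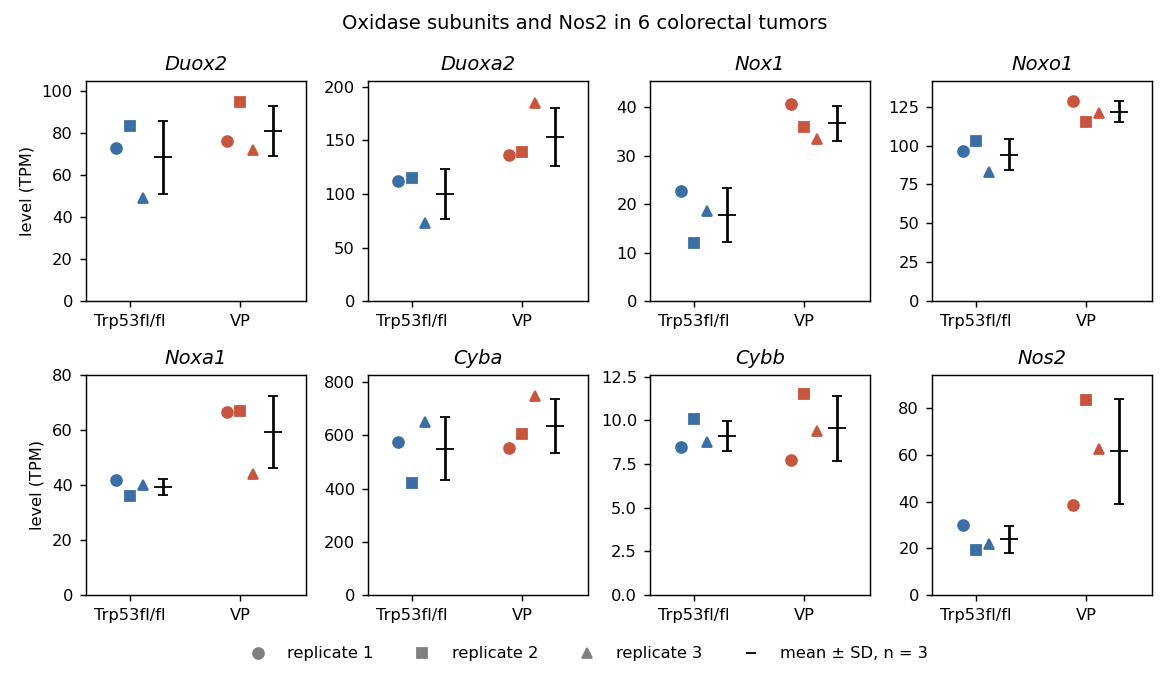
Level in TPM (y axis, from 0) of each of the 8 genes in Trp53fl/fl (blue) and VP (red) tumors; circles, squares and triangles are replicates 1, 2 and 3, and the black bar is the mean ± SD of 3 tumors. The colors do not overlap for Duoxa2, Nox1, Noxo1, Noxa1 and Nos2, and they overlap for Duox2, Cyba and Cybb.

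To ask which members differed with epithelial Trp53 deletion, VP tumors were compared with Trp53fl/fl tumors in limma, a linear model with shared variance, on log2(TPM + 1) over every gene that reached 1 TPM in 3 or more tumors. All 8 members passed this filter. No member passed an adjusted p of 0.05 (Benjamini-Hochberg over 15117 genes), a threshold that 0.165% of all genes passed. At an unadjusted p under 0.05, 5 of the 8 members were higher in VP tumors, against 4.51% of all genes tested, and 0 were lower, against 8% (1210 of 15117) of all genes. That balance depended on scaling: with median-of-ratios rescaling, 6.72% of all genes were higher and 4.83% lower, and the same 5 members were higher. The same 5 members were higher in every VP tumor than in any Trp53fl/fl tumor, which held for 6.03% of all genes. The members were chosen with earlier results of these data known. Their counts beside these shares are therefore a description and not independent evidence. The members' median log2 fold change was 0.46, and that of all genes was -0.07. With 3 tumors against 3, the exact permutation test (two-sided) cannot go below p = 0.1, and it gave that value for these 5 members.

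Nos2 and Nox1 had the largest differences among the members. Nox1, the catalytic chain of the epithelial superoxide-producing oxidase, was at 22.8, 11.9 and 18.7 TPM in Trp53fl/fl replicates 1 to 3 and 40.6, 35.9 and 33.4 TPM in VP replicates 1 to 3. Every VP tumor was above every Trp53fl/fl tumor, and Trp53fl/fl replicate 2 was the lowest. The mean was 17.8 ± 5.50 TPM (SD, n = 3) against 36.7 ± 3.64 TPM (SD, n = 3). The log2 fold change was 1.04 (SE 0.23, 95% interval 0.51 to 1.58), with an unadjusted p of 0.00235 and an adjusted p of 0.234 by limma. Nox1 was 152nd of the 15117 genes by p.

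Noxo1, which brings the cytosolic parts of the NOX1 complex to the membrane, was at 96.3, 102.9 and 83.2 TPM in Trp53fl/fl replicates 1 to 3 and 128.6, 115.3 and 120.7 TPM in VP replicates 1 to 3. The groups did not overlap, and the difference was small beside that of Nox1. Noxo1 gave a log2 fold change of 0.37 (SE 0.11), with an unadjusted p of 0.0143 and an adjusted p of 0.317 by limma.

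Noxa1, the activator subunit of the same complex, was at 41.9, 36.2 and 39.9 TPM in Trp53fl/fl replicates 1 to 3 and 66.6, 67.1 and 44.1 TPM in VP replicates 1 to 3. VP replicates 1 and 2 were high and VP replicate 3 was only just above the highest Trp53fl/fl tumor. Noxa1 gave a log2 fold change of 0.56 (SE 0.18), with an unadjusted p of 0.0165 and an adjusted p of 0.323 by limma.

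Cyba, the membrane partner shared by NOX1 and CYBB, was at 576.7, 420.6 and 652 TPM in Trp53fl/fl replicates 1 to 3 and 553.2, 604.1 and 749.6 TPM in VP replicates 1 to 3. The groups overlapped, with VP replicate 1 below 2 of the 3 Trp53fl/fl tumors. For Cyba the log2 fold change was 0.22 (95% interval -0.24 to 0.68), with an adjusted p of 0.643 by limma. It was 0.04 without Trp53fl/fl replicate 2, and also 0.04 with each tumor centred on its epithelial markers.

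Because TPM is per length, the partners could be set against each other within a tumor. The Noxo1 to Nox1 ratio of TPM was 4.22, 8.64 and 4.45 in Trp53fl/fl replicates 1 to 3 and 3.17, 3.21 and 3.61 in VP replicates 1 to 3. All 3 VP tumors had the lower ratio, with the highest in Trp53fl/fl replicate 2 (exact permutation test of the log2 ratio, two-sided, p = 0.1, adjusted p = 0.25 over the 5 ratios tested). The Noxa1 to Nox1 ratio was 1.84, 3.04 and 2.13 in Trp53fl/fl and 1.64, 1.87 and 1.32 in VP replicates 1 to 3. These ranges overlapped (exact permutation p = 0.2, adjusted p = 0.333). The organizer was above the catalytic chain in TPM in all 6 tumors, and so was the activator.

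**Figure D2:**
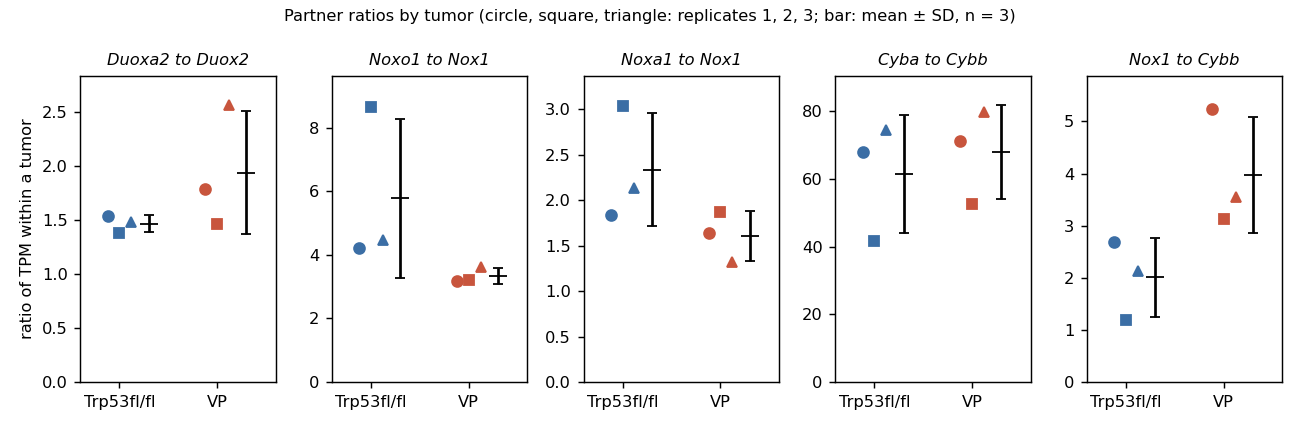
Ratio of TPM within a tumor (y axis, from 0) for 5 pairs of partner or related genes in Trp53fl/fl (blue) and VP (red) tumors; circles, squares and triangles are replicates 1, 2 and 3, and the black bar is the mean ± SD of 3 tumors. The colors do not overlap for Noxo1 to Nox1, lower in VP, or for Nox1 to Cybb, higher in VP.

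The DUOX2 pair differed less evenly. Duox2, the hydrogen peroxide-producing oxidase, was at 72.8, 83.5 and 49.2 TPM in Trp53fl/fl replicates 1 to 3 and 76.4, 94.8 and 72 TPM in VP replicates 1 to 3. The groups overlapped, with Trp53fl/fl replicate 2 above 2 of the 3 VP tumors. For Duox2 the log2 fold change was 0.26 (95% interval -0.23 to 0.76), with an adjusted p of 0.614 by limma. It was 0.05 without Trp53fl/fl replicate 3 and 0.08 with each tumor centred on its epithelial markers.

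Duoxa2, whose product takes DUOX2 out of the endoplasmic reticulum, was at 112, 115 and 72.9 TPM in Trp53fl/fl replicates 1 to 3 and 136.4, 138.7 and 184.5 TPM in VP replicates 1 to 3. The groups did not overlap, and VP replicate 3 was the highest. Duoxa2 gave a log2 fold change of 0.63 (SE 0.21), with an unadjusted p of 0.0193 and an adjusted p of 0.334 by limma. Trp53fl/fl replicate 3 was the lowest tumor for both genes, but VP replicate 2 was the highest for Duox2.

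The Duoxa2 to Duox2 ratio was 1.54, 1.38 and 1.48 in Trp53fl/fl replicates 1 to 3 and 1.79, 1.46 and 2.56 in VP replicates 1 to 3. The maturation factor was above the oxidase in every tumor, and the genotypes overlapped (exact permutation p = 0.3, adjusted p = 0.375). The related pair was hardly expressed: Duoxa1 stayed between 1.36 and 2.97 TPM and Duox1 between 0 and 0.12 TPM, levels named after their values were seen.

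Nos2 had the largest difference of the 8 genes. It was at 30.2, 19.4 and 22 TPM in Trp53fl/fl replicates 1 to 3 and 38.6, 83.7 and 62.5 TPM in VP replicates 1 to 3. The groups did not overlap, and the VP tumors were widely spread, with replicate 1 close to the highest Trp53fl/fl tumor and replicate 2 highest. The mean was 23.9 ± 5.65 TPM (SD, n = 3) against 61.6 ± 22.6 TPM (SD, n = 3). The log2 fold change was 1.29 (SE 0.29, 95% interval 0.60 to 1.97), with an unadjusted p of 0.00295 and an adjusted p of 0.246 by limma. In bulk tumors, more cells of a type that expresses a gene and more of its RNA per cell cannot be told apart.

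Cybb, the phagocyte catalytic chain, was at 8.47, 10.1 and 8.74 TPM in Trp53fl/fl replicates 1 to 3 and 7.75, 11.5 and 9.4 TPM in VP replicates 1 to 3. VP tumors held both the lowest and the highest value. The log2 fold change was 0.05 (95% interval -0.35 to 0.45), with an adjusted p of 0.914 by limma. Nox1 stood above Cybb in every tumor, by 2.69, 1.18 and 2.14 times in Trp53fl/fl replicates 1 to 3 and by 5.24, 3.13 and 3.56 times in VP replicates 1 to 3. These ranges did not overlap (exact permutation p = 0.1, adjusted p = 0.25).

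**Figure D3:**
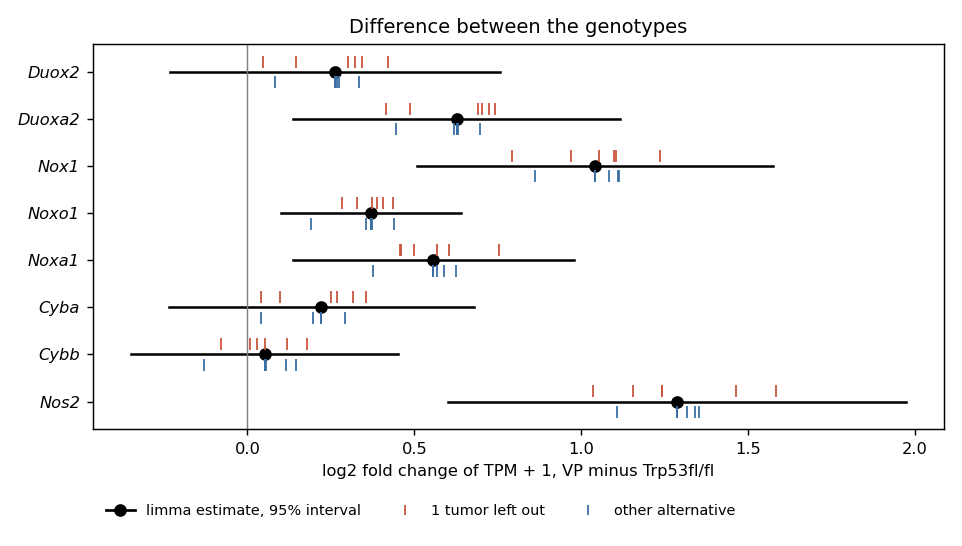
Log2 fold change of TPM + 1, VP minus Trp53fl/fl (x axis), for the 8 genes; black points and lines are the limma estimate and its 95% interval, red ticks the estimate with 1 tumor left out, and blue ticks the other processing alternatives. The ticks stay above 0 for every gene but Cybb.

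Nox1 and Nos2 had an unadjusted p under 0.05 in each of 15 processing alternatives. Noxa1 lost it without Trp53fl/fl replicate 2, VP replicate 1 or VP replicate 2, and Duoxa2 lost it without VP replicate 3, where its log2 fold change was 0.49 (unadjusted p = 0.0648). With each tumor centred on its epithelial markers, only Nox1 and Nos2 of the 8 kept it, and 1.92% of all genes were then higher and 25.3% lower at that p. The log2 fold change of Noxo1 was then 0.19 (unadjusted p = 0.178), and that of Noxa1 was 0.38 (unadjusted p = 0.0613). This centring moved the median of all genes to -0.25, so the members remained above that median.

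Markers of other cells also differed between the groups. Neutrophil markers summed to 371.5 to 708 TPM in Trp53fl/fl and 1193 to 2027 TPM in VP tumors. Of 13 listed, 12 were tested and 10 were higher at an unadjusted p under 0.05. At that p, 4.51% of all genes were higher and 8% lower. Among the neutrophil markers Ngp, a granule protein, rose in VP tumors (adjusted p = 0.00804, limma), and Camp was listed at 0 in all 3 Trp53fl/fl tumors. Csf3r and Ly6g overlapped between the groups, with log2 fold changes of 0.07 and 0.21. Macrophage and monocyte markers summed to 1305 to 1412 TPM in Trp53fl/fl and 1171 to 1616 TPM in VP tumors, with 3 of 12 higher at that p (Cd68, Cd14 and Ly6c2). Of 12 epithelial markers, 3 were higher at that p (Lgals4, Krt19 and Cldn7). Fibroblast markers summed to 815.4 to 905.9 TPM in Trp53fl/fl and 680.4 to 1015 TPM in VP tumors, and these ranges overlapped. Of the 6 fibroblast markers, 2 were lower at that p (Lum and Pdgfra), and 2 had a log2 fold change above 0. No tested gene of the B and plasma cell, T cell, smooth muscle or endothelial lists passed it. Only 1 of 6 eosinophil markers and 2 of 4 distal colon genes were expressed enough to be tested, and none of these passed it. The part of these cells in the values of Nos2, Nox1 and the other members was not tested.

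Of the 10 other NADPH oxidase genes listed, 7 passed the expression filter, and their median log2 fold change was -0.07, as for all genes. Rac1, a small GTPase that NADPH oxidases need, was the highest of the list at 377.7 ± 6.19 TPM (SD, n = 3) in Trp53fl/fl and 359.2 ± 13.7 TPM (SD, n = 3) in VP tumors.

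For nitric oxide, 14 genes of arginine supply, arginine use and cofactor synthesis were listed, 13 of which passed the filter, with a median log2 fold change of 0.08. Arg2, an arginase that competes with NOS2 for arginine, was the 1 gene past an unadjusted p of 0.05. It was at 5.56, 5.88 and 3.51 TPM in Trp53fl/fl replicates 1 to 3 and 8.68, 8.46 and 8.42 TPM in VP replicates 1 to 3, with no overlap (log2 fold change 0.69, adjusted p = 0.295, limma). Arg1, the other arginase, was far higher, with means of 61.5 TPM in Trp53fl/fl and 65.4 TPM in VP tumors. Its groups overlapped (log2 fold change 0.06, adjusted p = 0.911, limma), and it was named after its values were seen. Spr, a sepiapterin reductase that makes the NOS cofactor tetrahydrobiopterin, was the highest of the list, with a log2 fold change of 0.07 (adjusted p = 0.837, limma).

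Of 22 cytokines, receptors and transcription factors listed as possible regulators of these genes, 17 passed the filter. At an unadjusted p under 0.05, 6 were higher in VP tumors, against 4.51% of all genes, and 0 were lower, against 8%. With each tumor centred on its epithelial markers, 2 of the list passed that p, and with 1 tumor left out 3 to 9 did. The median log2 fold change of the 17 genes was 0.24, and none passed the adjusted threshold. Il6, an inflammatory cytokine, was at 1.7, 0.48 and 0.23 TPM in Trp53fl/fl replicates 1 to 3 and 6.13, 4.57 and 4.46 TPM in VP replicates 1 to 3 (log2 fold change 1.82, adjusted p = 0.123, limma). The VP tumors were all higher, at levels low enough that the log2(TPM + 1) scale understates the fold. Tnf was at 9.01, 8.18 and 16.8 TPM against 19.6, 17.9 and 23.6 TPM (log2 fold change 0.85), Myd88, the adaptor of Toll-like receptors, had a log2 fold change of 0.44, and Nfkbiz, an NF-kB cofactor, one of 0.39. Stat3, the highest gene of the list, had a log2 fold change of 0.06 (adjusted p = 0.865, limma). Ifng, the classic inducer of Nos2, did not pass the filter and was named after its values were seen. It was at 0.14, 0.07 and 0 TPM in Trp53fl/fl replicates 1 to 3 and 0, 1.34 and 0.28 TPM in VP replicates 1 to 3. VP replicate 2 was also the highest tumor for Nos2. VP replicate 1, with Ifng at 0, was above every Trp53fl/fl tumor for Nos2. These Ifng levels are close to 0, and a link to Nos2 was not tested.

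Of 5 haem peroxidases, which use hydrogen peroxide, 2 passed the filter. Lpo (lactoperoxidase) was at 17, 16.1 and 12.3 TPM in Trp53fl/fl replicates 1 to 3 and 35.5, 49.1 and 32.9 TPM in VP replicates 1 to 3. Every VP tumor was at least 1.93 times the highest Trp53fl/fl tumor (log2 fold change 1.30, adjusted p = 0.0878, limma).

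**Figure D4:**
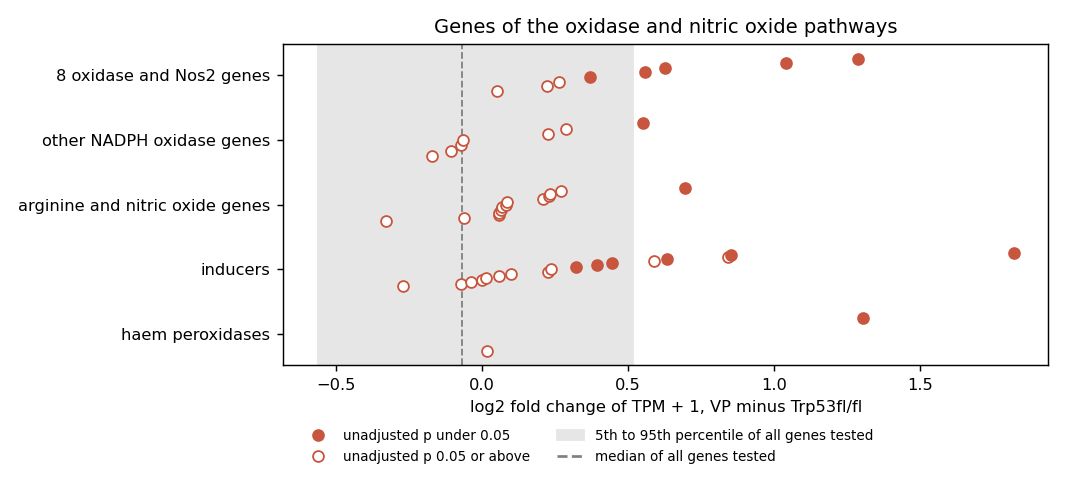
Log2 fold change of TPM + 1, VP minus Trp53fl/fl (x axis), for the 8 genes and 4 related lists (rows); filled points have an unadjusted p under 0.05 by limma, the grey band is the 5th to 95th percentile of all 15117 genes tested (-0.56 to 0.52) and the dashed line their median (-0.07). Of the 8 genes, 4 lie above the band.

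Likeness between genes was measured as the root mean square distance of log2(TPM + 1), centred on each gene's mean, over the 6 tumors, so it describes genotype and tumor differences together. Nearest to Duox2 were Plac8 (0.0805), Sh3gl2 and 2010003K11Rik, and nearest to Duoxa2 were Gm4045 (0.104), Rnf125 and Zdhhc14. Nearest to Nox1 were C2cd4b (0.123), Tmsb15b1 and Nfe2. No member was among the 3 nearest genes of another.

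Noxo1 was nearest to Dbndd2 (0.0459), Cystm1 and Pfkfb4, and Noxa1 to Hpdl (0.0642), Pcsk1 and Lox. Nearest to Nos2 were Igtp (0.195), Psmb9 and Il1a. Igtp was at 26.7, 14.6 and 18.9 TPM in Trp53fl/fl replicates 1 to 3 and 25.4, 77.3 and 40.8 TPM in VP replicates 1 to 3, so VP replicate 2 was highest, as for Nos2. Cybb was nearest to Atp10b (0.0415), Trim29 and Ctsc, and Cyba to Bok (0.045), Rhog and Gm16675.

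**Figure D5:**
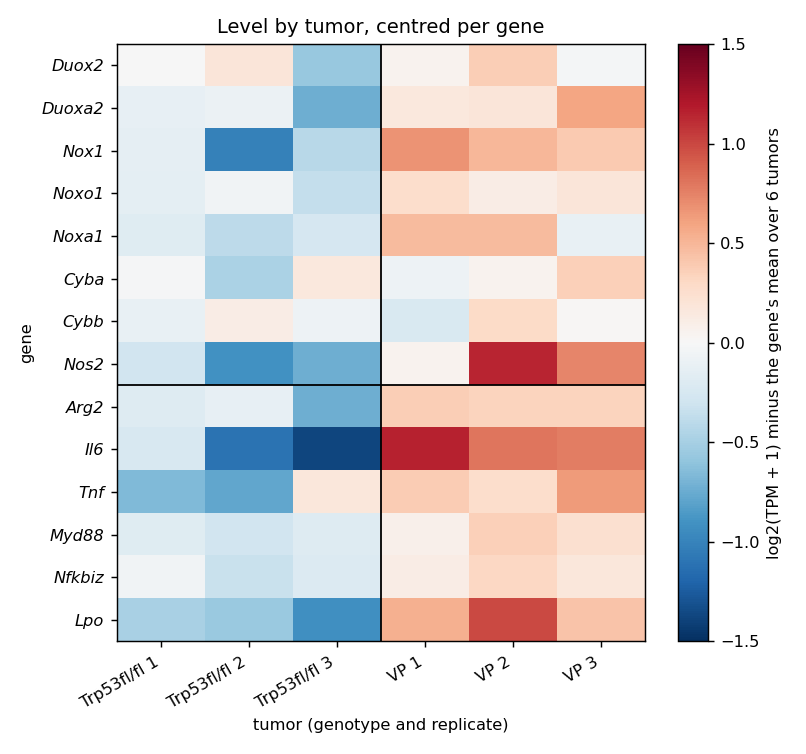
Level of the 8 genes (above the line) and of 6 genes from the related lists in each of the 6 tumors (columns), as log2(TPM + 1) minus the gene's mean over the tumors (color, red higher). The 6 genes of the lists each had an unadjusted p under 0.05 by limma and were higher in every VP tumor. They therefore do not represent their lists. Nos2 ranged most among the 8 genes, from 19.4 TPM in Trp53fl/fl replicate 2 to 83.7 TPM in VP replicate 2.

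Some members share genomic bases with other genes, and since the counting of strand is not given in the sources used here, reads there could have been assigned to either gene. Noxo1 shares 2581 bases with Tbl3 on the opposite strand (21.2 to 29 TPM), and Cyba shares 8155 bases with Gm20388 (24.2 to 34.4 TPM), well under their own levels. Nox1 shares 399 bases with Cstf2 (26.5 to 29.6 TPM), 13034 with Xkrx on the same strand (at most 0.37 TPM) and 20528 with Arl13a (at most 0.04 TPM). Noxa1 shares 50 bases with Entpd8 (17.7 to 32.7 TPM) and Duoxa2 695 bases with Duoxa1. Duox2, Nos2 and Cybb overlap no annotated gene.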

How the data were processed

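Colorectal tumors of Trp53fl/fl (n = 3) and VP (n = 3) mice were profiled by poly(A) RNA-seq, and the authors deposited TPM per gene, rounded to 2 decimals. The submitters' processing notes name HISAT2, StringTie and the build mm9, with no versions; the strand setting and the annotation are not given in the sources used here. Depth cannot be recovered from TPM, and scaling to a fixed total makes each value depend on the other genes of that tumor. Columns were matched to tumors by the codes in the labels.

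Genes that reached 1 TPM in 3 or more tumors were tested on log2(TPM + 1), a scale that understates the change of low genes, with limma 3.58.1 (R 4.3.3; empirical Bayes with trend) and Benjamini-Hochberg adjustment over 15117 genes; the threshold was an adjusted p under 0.05. The fit was tested on simulated data. Exact permutation tests used scipy 1.17.1. The alternatives changed the pseudocount, filter, scaling, variance model and tumors used. Named genes were every member, Trp53, the genes of each related list with an unadjusted p under 0.05 (at most 4) and its highest gene, the 3 genes nearest to each member, and defining markers; 1 gene of the related lists is not reported here. The members and lists were chosen with earlier results of these data known. GENCODE M21 held 96.2% of the gene identifiers, and 7 of 8 members, all but Nos2, had a RefSeq promoter entry.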

Additional observations from a re-analysis of the deposited data

How the results depend on the processing

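All 8 members kept an adjusted p above 0.05 in the 15 alternatives (limma), and 7 kept their direction. Cybb turned to -0.13 with epithelial centring and ranged from -0.0781 (without VP replicate 2) to 0.18 with 1 tumor left out. Members higher at an unadjusted p under 0.05 went from 5 to 2 with epithelial centring (Nox1 and Nos2) and ranged from 4 to 5 with 1 tumor left out. The share of all genes higher at that p was 4.51% in the main fit and 1.92% with epithelial centring, and the share lower was 8% and 25.3%. With 1 tumor left out, the share higher ranged from 3.07% to 5.54%. With epithelial centring, 2 other NADPH oxidase genes and 2 of the 22 cytokines, receptors and transcription factors passed that p, against 1 and 6. With 1 tumor left out, these lists gave 1 to 2 and 3 to 9, and the arginine and nitric oxide list 1 to 2. Genes with an adjusted p under 0.05 over the whole table went from 25 (12 higher, 13 lower) to 7 with no filter (4 higher), 44 with epithelial centring (14 higher, 30 lower) and 6 to 28 with 1 tumor left out (6 without VP replicate 2, 8 without Trp53fl/fl replicate 1). With median-of-ratios rescaling they were 22 (13 higher, 9 lower). The log2 Cyba to Cybb ratio, 0.17, ranged from -0.0911 (without Trp53fl/fl replicate 2) to 0.34. The adjusted p of Trp53 ranged from 0.00817 to 0.105, and was above 0.05 with no filter (0.105), with the replicate block (0.0883) and without Trp53fl/fl replicate 1 or 3 or VP replicate 1 or 2.

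No pairing by the labels' replicate numbers was seen: deviations of same-numbered tumors correlated at 0.0185, -0.052 and 0.0175. With deviations taken from means of only 3 tumors, these correlations cannot exclude a shared litter or batch. A replicate block left 10 genes with an adjusted p under 0.05 (7 higher, 3 lower) and 5 members higher at an unadjusted p under 0.05. Depth per tumor is unknown, so differences among genes near 1 TPM, such as Il6, cannot be weighed against counting error. The causes of these changes were not tested.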
